A study of Mus musculus with 11 samples.

Results

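The livers compared here were taken 36 h and 48 h after an overdose of paracetamol (acetaminophen, APAP), a drug that kills the hepatocytes around the central vein and after which the surviving liver divides to restore its mass. Members were chosen by label: the 2 sections marked 36 h (A and B) and the 4 marked 48 h (A to D), 6 of the 11 mouse liver sections profiled with Visium, an assay that reads polyadenylated RNA from a slide of barcoded capture spots, each of which covers several cells. Both groups carry the label POD, which the labels do not spell out, and differ in them by time alone. The design text gives APAP as the injury, and the study's methods describe young adult mice, male unless a figure legend says otherwise, fasted before an intraperitoneal injection. They name C57BL/6JCrl mice and reporter lines without saying which gave the spatial sections. The remaining sections, 3 labelled Uninjured at 0 h and 2 labelled POD at 24 h, entered the low-count filter, the scaling and the estimate of spread, and are quoted as levels. The labels list sections as separate samples, name neither mouse nor slide, and the methods count a single mouse liver per time point, so n counts sections, each p covers only the spread between them, and mouse, slide and time cannot be told apart.

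Unique transcript counts (UMIs) of the spots passing the quality filter were summed for each section. The 36 h sections A and B held 1970 and 2035 spots and 31292663 and 33338901 UMIs, and the 48 h sections A to D held 1490 to 3466 spots and 43600556 to 60856876 UMIs. Median UMIs per spot ranged from 15168.5 to 16294 at 36 h and from 17518 to 27988.5 at 48 h, so the later sections were deeper. Levels are given as CPM, UMIs per 1000000 of the scaled section total, with section A first. The 36 h sections differed from each other more than any pair of 48 h sections did (chi-square per gene 225.7 against 65.2 to 172), and median mitochondrial UMIs were 1.69% in section A and 4.56% in section B at 36 h, against 1.86% to 2.67% at 48 h. Hepatocyte plasma protein genes were abundant in every section, as the tissue label implies: Alb, which encodes albumin, had levels of 49890.0 and 60550.0 CPM in the 36 h sections and 54776, 59988, 42701 and 44357 CPM in the 48 h sections.

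After loss of hepatocytes, surviving cells leave quiescence, copy their DNA in S phase, and then build the machinery of G2 and mitosis, a programme switched on late in the cycle by the transcription factors B-Myb and FoxM1 and by the CCAAT-binding factor NF-Y. Dead cells are cleared by macrophages, many of them from blood monocytes, while stellate cells, the vitamin A-storing cells of the sinusoid, turn into contractile, collagen-making myofibroblasts. Hepatocytes also run a daily transcriptional clock, in which BMAL1 (gene Arntl) with CLOCK or NPAS2 drives E-box genes such as the Per, Cry and Dbp genes, whose products then hold it back.

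Between 36 h and 48 h the genes of mitosis rose together, clock output genes fell while Arntl and Npas2 rose, and a few collagen, macrophage, chemokine and Wnt target genes rose. Of 14821 genes tested, 452 were called (3.05%), 240 higher at 48 h (1.62%) and 212 lower (1.43%), by edgeR's quasi-likelihood test with Benjamini-Hochberg adjustment at an adjusted p under 0.05. At an unadjusted p under 0.05, 10.1% of genes were higher and 10.4% lower. All 4 sections at 48 h lay above both at 36 h for 12.8% of genes and below both for 12.9%. The median log2 fold change of all genes was -0.01. Total-count scaling gave 383 higher and 133 lower.

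Fitted on the 36 h and 48 h sections alone, edgeR called 0 genes (2234 at an unadjusted p under 0.05), while DESeq2 on all sections called 1224. Leaving out 1 section gave 232 and 1130 calls for 36 h sections A and B, 739, 45, 51 and 231 for 48 h sections A to D, and 222, 202 and 217 for the 0 h sections. Of the 50 called genes named below by rule, 6 stayed called whichever section was left out: Arntl, Npas2, Usp2, Dut, Anln and Ccl3. Only 14 of the 50 were called without 36 h section A, 10 without 48 h section B and 9 without section C, with adjusted p up to 0.236.

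**Figure D1:**
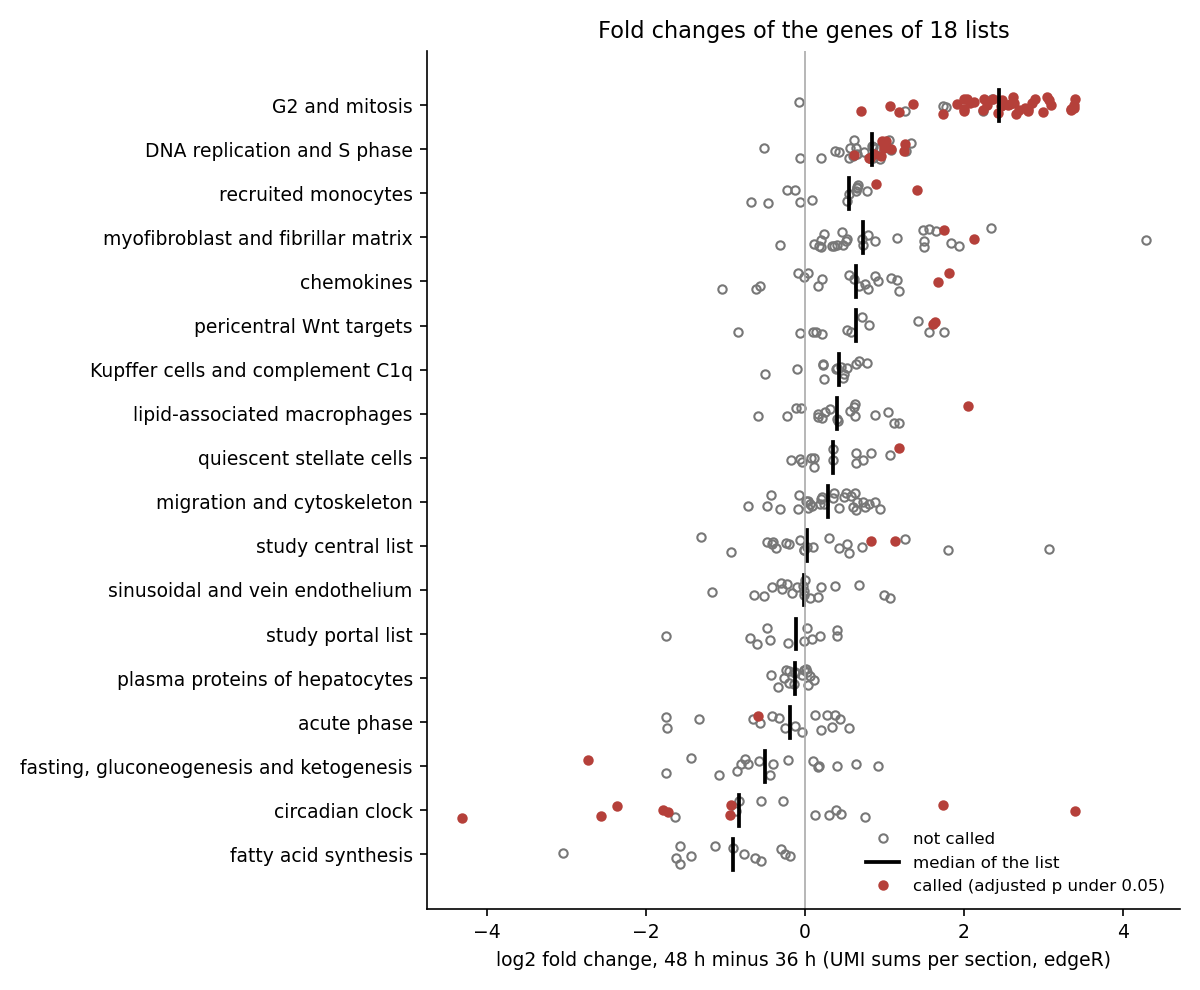
Each point is 1 gene of a list, placed by its log2 fold change at 48 h against 36 h; filled points were called at an adjusted p under 0.05 and the bar is the list's median. The G2 and mitosis list lies at the far right with 40 of 46 genes called, and the clock list holds called genes on both sides of 0.

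Genes that act in G2 and mitosis rose nearly as a whole. Of the 46 listed, all tested, 40 were called higher at 48 h and none lower, against 1.62% of all genes called higher. The list's median log2 fold change was 2.45, and for 45 of the 46 all 4 later sections lay above both earlier ones, beside 12.8% of all genes. Pttg1 (securin) was the exception, with a log2 fold change of -0.08 ± 0.12. The summed level of the list was 179 and 166 CPM in the 36 h sections and 309, 548, 579 and 769.7 CPM in the 48 h sections. At 0 h it was already 153, 153 and 150 CPM. Section A was the lowest of the 48 h sections and section D the highest. In sums over whole sections, more cycling cells and more mitotic RNA per cycling cell cannot be told apart.

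The list was led by genes that drive entry into and exit from mitosis. Ccnb2 (chr9:70407692-70421547, mm10), a B-type cyclin that activates CDK1, measured 1.16 and 0.799 CPM in the 36 h sections and 3.07, 10.3, 9.91 and 16.8 CPM in the 48 h sections, a log2 fold change of 3.35 ± 0.63 (SE; adjusted p = 0.0259). Its 36 h level lay within the range at 0 h (0.770, 1.36 and 1.19 CPM), and every 48 h section lay above that range. Cdc20 (chr4:118432901-118437352), the activator that directs the anaphase-promoting complex at its targets, moved from 1.07 and 0.913 to 3.61, 10.99, 9.50 and 17.7 CPM (3.39 ± 0.58, adjusted p = 0.0218). Ube2c (chr2:164769898-164778822), the ubiquitin-conjugating enzyme of that complex, rose from 3.16 and 2.63 to 10.8, 31.2, 29.7 and 45.6 CPM (3.34 ± 0.53, adjusted p = 0.0198). The groups did not overlap for any of these genes, and 48 h section A was the lowest later section each time. Ccnb1, the other main mitotic cyclin, went from 1.77 and 1.17 to 4.43, 11.8, 10.5 and 17.1 CPM (2.90 ± 0.50, adjusted p = 0.0220). Ccnb1 has near-identical pseudogene copies, so its count is less certain.

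Promoters of Ccnb2, Cdc20, Ube2c and Ccnb1, described above, and of the cycling marker Mki67 are shown because members of the list moved together. Mki67, with a log2 fold change of 2.42, lay near the list's median of 2.45. All the genes shown, Mki67 included, were among the largest rises named by rule, so they do not stand for the whole list. Each run is the 250 bases before the RefSeq start on GRCm38.p6, 5′ to 3′, with CCAAT (the NF-Y box) and TTTGAA (the cell cycle genes homology region, where the MuvB complex binds) in capitals on either strand, written ATTGG and TTCAAA where the match is on the opposite one.
Ccnb2, chr9:70421555-70421804, minus strand: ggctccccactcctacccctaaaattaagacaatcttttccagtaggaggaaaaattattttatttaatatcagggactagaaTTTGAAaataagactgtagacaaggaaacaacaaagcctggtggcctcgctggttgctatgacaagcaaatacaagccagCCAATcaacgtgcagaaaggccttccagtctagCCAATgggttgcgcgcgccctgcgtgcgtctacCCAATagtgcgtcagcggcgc
Cdc20, chr4:118437344-118437593, minus strand: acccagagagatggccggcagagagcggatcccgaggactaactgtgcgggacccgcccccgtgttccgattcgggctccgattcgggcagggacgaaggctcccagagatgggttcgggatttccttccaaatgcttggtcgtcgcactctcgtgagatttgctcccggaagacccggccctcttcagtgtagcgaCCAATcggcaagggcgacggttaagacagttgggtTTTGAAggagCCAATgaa
Ube2c, chr2:164769679-164769928, plus strand: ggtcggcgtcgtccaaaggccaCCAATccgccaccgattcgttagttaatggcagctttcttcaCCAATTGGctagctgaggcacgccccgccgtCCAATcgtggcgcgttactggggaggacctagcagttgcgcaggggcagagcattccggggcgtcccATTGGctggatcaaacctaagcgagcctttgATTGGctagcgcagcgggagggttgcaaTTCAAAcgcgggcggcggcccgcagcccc
Ccnb1, chr13:100786487-100786736, minus strand: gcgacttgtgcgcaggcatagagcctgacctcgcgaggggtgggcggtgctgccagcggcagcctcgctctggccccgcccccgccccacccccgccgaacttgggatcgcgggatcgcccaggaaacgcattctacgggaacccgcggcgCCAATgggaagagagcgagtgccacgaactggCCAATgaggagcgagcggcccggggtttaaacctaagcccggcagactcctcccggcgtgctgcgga
Mki67, chr7:135716380-135716629, minus strand: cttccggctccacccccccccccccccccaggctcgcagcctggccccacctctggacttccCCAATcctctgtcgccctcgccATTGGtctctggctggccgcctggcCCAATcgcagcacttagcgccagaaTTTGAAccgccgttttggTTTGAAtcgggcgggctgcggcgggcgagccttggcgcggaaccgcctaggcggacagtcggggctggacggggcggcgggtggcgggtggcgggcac
Within these runs Ccnb2 held 3 CCAAT and 1 TTTGAA, Cdc20 held 2 and 1, Ube2c held 6 and 1, with 1 pair of its CCAAT matches overlapping on opposite strands, Ccnb1 held 2 CCAAT and 0 TTTGAA, and Mki67 held 3 and 2. In the RefSeq table, whose windows run from 250 bases before to 50 after the start, 40 of the 46 genes had 43 promoters. TTTGAA was found in 76.7% of them against 17.9% of all 32851 promoters, and CCAAT in 72.1% against 37.4%. A longer E2F motif, TTTGGCGC, was in 0 of the 43 and in 5 of 33 promoters of the DNA replication list (15.2%), against 0.514% of all. Of those 33, CCAAT was in 57.6% and TTTGAA in 9.09%. These are letter matches in a fixed window and are not measured binding sites.

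Genes of the mitotic spindle and of chromosome packing moved with the cyclins. Prc1, which bundles the central spindle, stood at 0.869 and 1.43 CPM at 36 h and 4.62, 9.54, 10.2 and 13.6 CPM at 48 h (3.04 ± 0.44, adjusted p = 0.0142). Anln, the anillin of the cleavage furrow, stood at 0.724 and 1.34 and 3.76, 7.09, 8.12 and 9.20 CPM (2.77 ± 0.39, adjusted p = 0.0139). For both genes every 48 h section lay above both 36 h sections, and Anln stayed called whichever section was left out. Racgap1, a regulator of the cytokinetic ring, rose by 2.62 ± 0.43, Tpx2, an activator of Aurora A, by 2.48 ± 0.46, Birc5 (survivin) by 2.48 ± 0.41, the S and G2 cyclin Ccna2 by 2.58 ± 0.40 and Pbk, a mitotic kinase, by 2.47 ± 0.45 (log2, all called). Top2a, which untangles sister chromatids, measured 4.37 and 4.71 CPM and then 11.3, 20.8, 23.9 and 30.2 CPM (2.25 ± 0.38, adjusted p = 0.0220). Mki67 (chr7:135689784-135716361), the Ki67 antigen of cycling cells, measured 4.75 and 3.77 CPM and then 12.3, 20.8, 25.1 and 33.2 CPM (2.42 ± 0.48, adjusted p = 0.0299). Mki67 and Top2a were already above every 0 h section at 36 h (highest 1.07 and 0.847 CPM), unlike Ccnb2. The list's calls were lost with the 36 h and 48 h sections alone (0) and fell to 2 without 36 h section A, to 22 without section B, and to 3 without 48 h section B or C, while the list's median stayed between 1.96 and 2.65 with at least 45 genes above 0 in every setting tried.

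**Figure D2:**
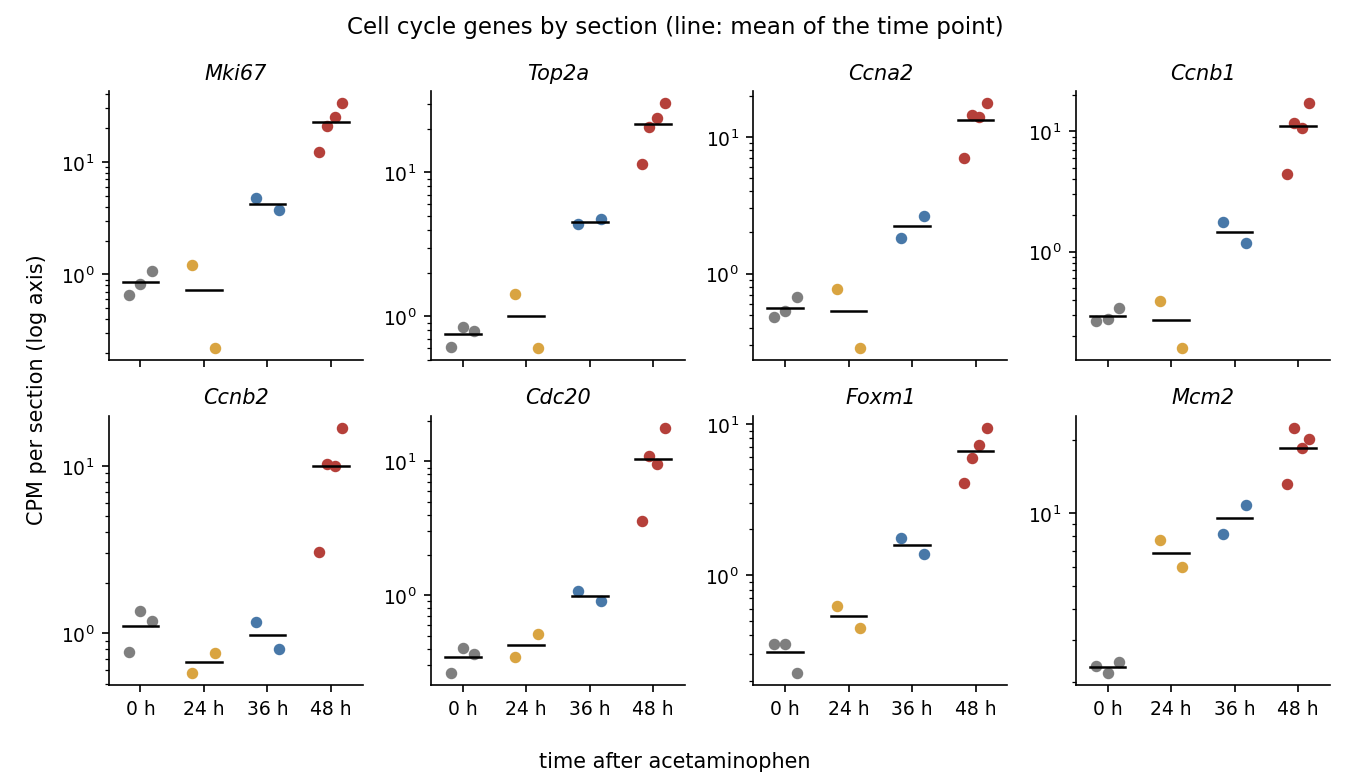
CPM of 8 cell cycle genes in each of the 11 sections on a log axis, sections A to D (or 2 to 4 at 0 h) from left to right, with the mean of each time point as a line. The 48 h points lie above the 36 h points in every panel, with section A lowest, and the step is small for Mcm2.

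Fewer DNA replication genes were called, and by smaller steps. Their summed level was 298 to 303 CPM at 0 h, 397 and 407 CPM at 36 h and 475, 662, 639 and 695 CPM at 48 h, so the 36 h sections already lay above the uninjured ones. Of 34 genes, 11 were called higher (32.4%, beside 1.62% of all genes) and 0 lower, and the median log2 fold change was 0.85. For 26 of the 34, all later sections lay above both earlier ones, beside 12.8% of all genes. Dut, which clears dUTP from the nucleotide pool, stood at 19.3 and 19.6 CPM at 36 h, close to the 21.9, 23.3 and 20.4 CPM at 0 h, while the 48 h sections held 28.7, 37.5, 36.01 and 33.5 CPM (0.80 ± 0.12, adjusted p = 0.0159). Rrm1, the large subunit of ribonucleotide reductase, stood at 11.5 and 13.4 and 19.1, 27.3, 27.8 and 31.4 CPM (1.09 ± 0.19, adjusted p = 0.0216). The helicase subunits Mcm2, Mcm4, Mcm6 and Mcm7 were called, with log2 fold changes from 0.87 for Mcm7 to 1.26 for Mcm4. Tk1, thymidine kinase, was at 54.5 and 39.6 CPM at 36 h and 44.5, 43.1, 52.04 and 41.3 CPM at 48 h (-0.06 ± 0.15) and overlapped between the times. The call count was 23 by DESeq2, 17 with total-count scaling, 21 without 48 h section A, 6 without section D or any 1 of the 0 h sections, 1 without 36 h section A or 48 h section B or C, and 0 with the 36 h and 48 h sections alone.

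In the list of G1 control, with 15 genes tested, no gene other than Foxm1 was called. Foxm1 encodes a transcription factor of the late-cycle programme named above, and is not a G1 cyclin, kinase or inhibitor. It stood at 1.77 and 1.37 CPM at 36 h and 4.07, 5.94, 7.20 and 9.35 CPM at 48 h (2.08 ± 0.34, adjusted p = 0.0182), every later section above both earlier ones. Ccnd1, the D-type cyclin induced as hepatocytes leave quiescence, had 22.9 and 31.99 and 48.3, 97.8, 61.4 and 75.5 CPM without overlap and missed the threshold (1.37 ± 0.41, adjusted p = 0.0986). Cdkn1a (p21) spread from 9.68 and 57.5 CPM within 36 h, and its 48 h values of 27.1, 16.9, 28.7 and 21.6 CPM lay between them. None of 14 p53 target genes was called by edgeR (4 at an unadjusted p under 0.05), nor any of 20 ribosome biogenesis genes, with a median of -0.14 and 4 of the 20 lower at that unadjusted threshold.

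Within the tissue, more spots carried mitotic transcripts at 48 h. After each spot was thinned to 5000 UMIs, so that depth could not set the share, at least 1 UMI of the G2 and mitosis list was found in 60.3 and 55.6% of spots at 36 h and in 74.4, 87.4, 89.5 and 94.8% at 48 h. Uninjured 0 h sections held 153, 153 and 150 CPM of this list, so 1 UMI of it does not by itself mark a cell in mitosis. For Mki67 the shares were 3.02 and 1.70% and 6.43, 11.3, 11.97 and 17.02%, and for Ccnb2 0.677 and 0.600% and 1.53, 5.37, 5.53 and 9.11%. All later sections exceeded both earlier ones, with section A the lowest. The exact permutation test over sections (two-sided, 15 arrangements) gave p = 0.0667 for the list and for Mki67, the smallest that 2 against 4 sections allow, and p = 0.2 for Ccnb2. Before thinning, 1 to 123 spots per section had too few UMIs and were left out, and no section's 95% Clopper-Pearson interval for a share had a half-width above 2.57 percentage points, counting error only. UMIs under spots off the tissue made up 17.5% and 17.8% of the totals at 36 h and 14.6% to 24.9% at 48 h. The part of free RNA in these shares was not tested.

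Adjacent spots resembled each other more in mitotic transcripts at 48 h. The correlation of a spot's count with the mean of its adjacent spots, for the G2 and mitosis list at 5000 UMIs per spot, was 0.0198 and 0.128 at 36 h and 0.345, 0.414, 0.514 and 0.516 at 48 h over 1489 to 3343 spots a section. Col1a1, the fibrillar collagen chain, gave 0.147 and 0.211 and then 0.362, 0.346, 0.519 and 0.503, and Gpnmb, a macrophage gene of lipid-laden and scavenging cells, 0.253 and 0.155 and then 0.379, 0.402, 0.458 and 0.426. All are descriptions without a test, since spots of a section share a library and RNA that spreads between spots, and the level of each of these features also differed between the times. For Upp2, which fell, the values were 0.133 and 0.246 and 0.166, 0.0937, 0.148 and 0.0818.

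**Figure D3:**
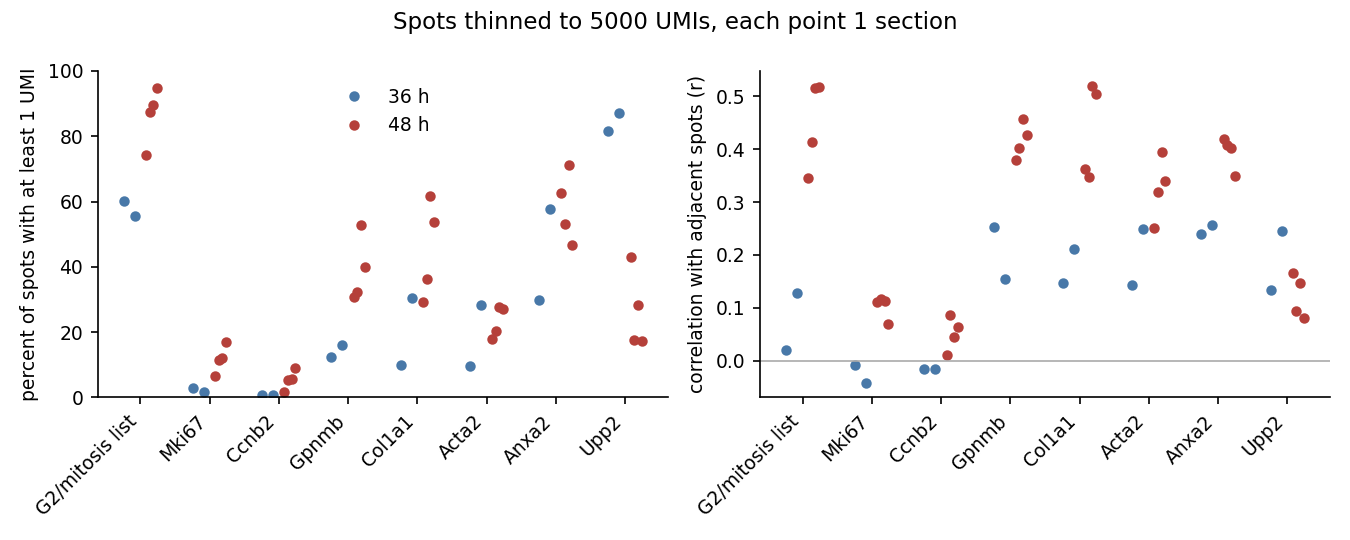
Left, percent of spots with at least 1 UMI of a gene or of the G2 and mitosis list; right, correlation of each spot's count with its adjacent spots; each point is 1 section at 5000 UMIs per spot. Shares of mitotic genes and Gpnmb are higher in all 4 sections at 48 h, those of Col1a1, Acta2 and Anxa2 overlap, and that of Upp2 is lower.

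Clock genes changed in both directions. Of 19 listed, 2 were called higher (Arntl and Npas2) and 7 lower (Per2, Per3, Cry2, Dbp, Tef, Hlf and Ciart), in all 47.4%, beside 3.05% of all genes. The median log2 fold change was -0.83 (-0.18 without 36 h section A), with 7 genes above 0. All later sections lay above both earlier ones for 5 genes and below both for 10, beside 12.8% and 12.9% of all genes. The samples are 12 h apart, and no label gives the hour of day, so time since APAP and time of day cannot be told apart. The levels in the earlier sections are given beside the main genes.

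Activators of the clock were low at 36 h. Arntl (chr7:113207465-113314126) stood at 3.33 and 3.57 CPM at 36 h and 11.2, 12.8, 9.37 and 12.5 CPM at 48 h (1.73 ± 0.15, adjusted p = 0.00281), against 17.4, 15.4 and 16.7 CPM at 0 h and 8.80 and 9.32 CPM at 24 h. Npas2, its partner, stood at 0.0869 and 0.400 CPM at 36 h and 2.13, 2.76, 2.08 and 3.45 CPM at 48 h (3.40 ± 0.45, adjusted p = 0.0135), against 4.75, 4.42 and 3.70 CPM at 0 h and 1.83 and 1.56 CPM at 24 h. For both genes the 36 h sections were the lowest of all 11. Both calls held without any 1 section.

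Output genes and repressors were high at 36 h. Dbp (chr7:45705088-45710203), a transcription factor of the PAR-bZip family driven directly by BMAL1, stood at 63.4 and 28.8 CPM at 36 h and 8.82, 6.95, 10.9 and 9.07 CPM at 48 h (-2.36 ± 0.35, adjusted p = 0.0159). Its levels at 0 h (7.81, 4.99 and 3.13 CPM) and 24 h (4.17 and 2.90 CPM) were also low. Tef, of the same family, stood at 129 and 77.1 and 42.2, 28.97, 29.02 and 19.8 CPM (-1.78 ± 0.32, adjusted p = 0.0247). The 36 h sections stood above all other sections for both. Per3 measured 41.8 and 11.6 CPM at 36 h and 6.08, 4.35, 4.06 and 3.55 CPM at 48 h (-2.56 ± 0.42, adjusted p = 0.0204), Per2 15.8 and 9.27 and 4.65, 4.67, 3.21 and 2.73 CPM (-1.72 ± 0.31), and Cry2 26.7 and 22.5 and 15.96, 12.5, 12.02 and 11.2 CPM (-0.93 ± 0.16). Ciart, an E-box repressor also known as Chrono, measured 4.49 and 18.04 CPM and then 1.04, 0.382, 0.660 and 0.144 CPM (-4.32 ± 0.63, adjusted p = 0.0159). Of the 36 h sections, A was the higher for Dbp, Tef, Per2 and Per3, and B for Ciart and Hlf. Nr1d1, which encodes the repressor REV-ERBα, was not called, at 9.88 and 10.4 CPM and 13.3, 7.87, 11.9 and 11.2 CPM (0.13 ± 0.44). The 7 lower calls became 9 by DESeq2 or without 36 h section B, 2 without 36 h section A, 1 without 48 h section C, and 0 without 48 h section B or with the 36 h and 48 h sections alone.

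The promoter of Ciart, the clock gene with the steepest fall, is printed with its E-boxes (CACGTG, the same on both strands) in capitals, as the 250 bases before the RefSeq start on GRCm38.p6.
Ciart, chr3:95882229-95882478, minus strand: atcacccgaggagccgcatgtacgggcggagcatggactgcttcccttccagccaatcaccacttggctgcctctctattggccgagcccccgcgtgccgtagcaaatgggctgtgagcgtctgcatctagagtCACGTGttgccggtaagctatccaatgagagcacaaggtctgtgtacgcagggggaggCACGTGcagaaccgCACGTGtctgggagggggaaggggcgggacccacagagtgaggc
It held 3 E-boxes, none overlapping. In the same stretch the promoters of Dbp, Per3, Arntl, Upp2 and Usp2 held 0, and each of the 2 Tef promoters held 1. No promoter of Per2 was analysed here. For 16 of the 19 clock genes the RefSeq table held 21 promoters, of which 28.6% held CACGTG, against 7.15% of all promoters.

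Several liver genes outside the core list fell with the output genes. Upp2 (chr2:58567298-58792971), a uridine phosphorylase of the liver, stood at 341 and 433 CPM at 36 h and 104, 34.6, 58.5 and 35.4 CPM at 48 h (-2.73 ± 0.39, adjusted p = 0.0150), against 126, 91.2 and 88.5 CPM at 0 h and 7.46 and 5.46 CPM at 24 h. Its transcripts were found in 81.7 and 87.00% of thinned spots at 36 h and 42.99, 17.6, 28.3 and 17.1% at 48 h (exact permutation p = 0.0667, the smallest possible). Usp2, a deubiquitinase with a daily rhythm in liver, had 26.5 and 43.3 and 8.51, 2.66, 6.67 and 4.35 CPM (-2.65 ± 0.39, adjusted p = 0.0159), and its call held without any 1 section. Noct (nocturnin), a clock-controlled phosphatase, had 15.3 and 47.3 and 8.98, 8.43, 7.43 and 8.87 CPM (-1.89 ± 0.31, adjusted p = 0.0204). Lpin1, a phosphatidate phosphatase and co-activator induced by fasting, had 34.01 and 181 and 29.2, 12.5, 19.5 and 16.3 CPM (-2.47 ± 0.51, adjusted p = 0.0358). At 0 h Usp2 stood at 1.96, 2.15 and 2.37 CPM, below both 36 h sections. Noct stood at 27.6, 28.9 and 28.6 CPM and Lpin1 at 74.8, 87.2 and 100.5 CPM at 0 h, above 36 h section A and below section B for both genes. The 36 h sections of Lpin1 lay far apart, with A close to 48 h section A, and its call was lost without 36 h section B, without 48 h section B, C or D and without any 1 of the 0 h and 24 h sections. The call of Upp2 was lost without 48 h section C alone (adjusted p = 0.0502).

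**Figure D4:**
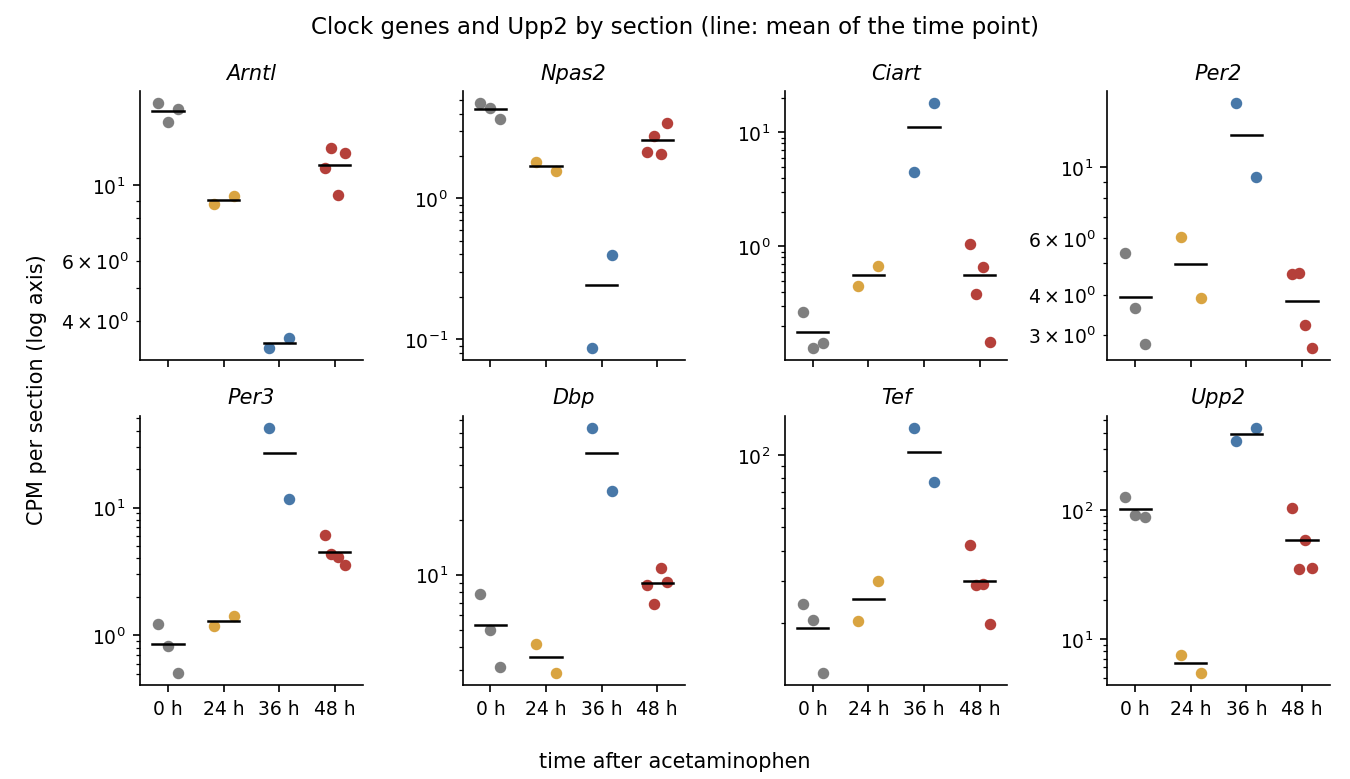
CPM of 7 clock genes and Upp2 in each of the 11 sections on a log axis, with the mean of each time point as a line. Arntl and Npas2 are lowest at 36 h, the other 6 are highest at 36 h, and the 48 h points lie nearer the 0 h points for most.

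The lists of hepatocyte plasma proteins and zonation gave 0 to 2 calls each, where 3.05% of all genes were called. None of 16 plasma protein genes was called by edgeR (1 at an unadjusted p under 0.05), with a median of -0.13 and log2 fold changes from -0.43 to 0.12. Of the study's central list of 23 genes and portal list of 12 genes, which the study named with these data in hand and which are therefore no independent evidence, 2 and 0 were called, with medians of 0.03 and -0.12 (0.57 and -0.09 without 36 h section A, and -0.12 and -0.27 without section B). Cyp2e1, the pericentral enzyme that turns APAP into its toxic product, stood at 649 and 605 CPM at 36 h and 550.3, 574, 472 and 529 CPM at 48 h (-0.24 ± 0.19, adjusted p = 0.520), against 2787, 2486 and 2011 CPM at 0 h. Hal, a periportal histidine-degrading enzyme, had 229 and 245 and 281, 288, 191 and 180.0 CPM (-0.01 ± 0.20), and its sign turned with DESeq2 size factors and with total-count scaling. Rnase4, called higher in the central list, went from 604 and 477 to 820.3, 1117, 1601 and 1199.9 CPM (1.13 ± 0.24, adjusted p = 0.0335). It shares exons with Ang, another member of the list, and the part of reads from shared exons in its count was not tested. Lect2, a secreted hepatocyte protein, went from 128 and 176 to 225, 304, 299.6 and 248 CPM (0.83 ± 0.19, adjusted p = 0.0471).

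Among 14 pericentral Wnt targets, Axin2 and Lgr5 were called higher (14.3%, beside 1.62% of all genes). Of the 14, 12 lay above 0 and the median was 0.64, where 7257 of all 14821 genes lay above 0. Axin2, a feedback inhibitor of β-catenin, stood at 0.637 and 1.08 CPM at 36 h and 2.20, 2.42, 3.20 and 2.93 CPM at 48 h (1.64 ± 0.31, adjusted p = 0.0253). Lgr5, the R-spondin receptor, stood at 0.521 and 0.428 and 1.56, 1.79, 1.38 and 1.08 CPM (1.61 ± 0.34, adjusted p = 0.0352). No section overlapped for either gene, and Axin2 at 48 h covered the 0 h range (2.29, 2.80 and 2.49 CPM) while Lgr5 stayed below it (3.06, 2.52 and 2.54 CPM). Glul, glutamine synthetase of the innermost hepatocytes, did not follow, at 21.1 and 43.00 CPM and then 14.4, 14.03, 18.7 and 24.5 CPM (-0.84 ± 0.31, adjusted p = 0.165), against 254, 239 and 229.7 CPM at 0 h. The endothelial Wnt signals Rspo3 and Wnt2 had log2 fold changes of 1.06 ± 0.30 and 0.997 ± 0.31 and missed the threshold (adjusted p = 0.0785 and 0.105). Both Wnt target calls were lost without 36 h section A or 48 h section B or C, and that of Lgr5 also without 36 h section B or any 1 of the 0 h sections (adjusted p up to 0.0874 for Axin2 and 0.0817 for Lgr5).

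Each metabolic list gave 0 or 1 call, where 3.05% of all genes were called. Asl, the urea cycle's argininosuccinate lyase, fell from 613 and 1007 to 413, 321, 329 and 251 CPM (-1.30 ± 0.21, adjusted p = 0.0186), the only 1 of 7 urea cycle genes called. Ppara, the receptor that drives fatty acid oxidation, fell from 4.61 and 5.48 to 2.74, 2.74, 1.87 and 2.36 CPM (-1.06 ± 0.19, adjusted p = 0.0230), 1 of 12 hepatocyte transcription factors, 9 of which lay below 0. Of 18 fasting and gluconeogenesis genes only Upp2 was called, and the median was -0.50. Without 36 h section A 3 of them were called lower, and without section B the median was -0.15. All 13 fatty acid synthesis genes lay below 0 with a median of -0.91, and 0 were called by edgeR (4 at an unadjusted p under 0.05) or by DESeq2. The 36 h sections were far apart here, with Fasn, fatty acid synthase, at 764 and 64.1 CPM and Scd1, the main desaturase, at 3665 and 84.1 CPM, against 236, 186, 146 and 186 and 685, 381, 739.8 and 967 CPM at 48 h. Without 36 h section A the list's median was 0.56, and without section B it was -1.73 with 5 genes called lower. No call was made by edgeR among 22 cholesterol synthesis genes (1 at an unadjusted p under 0.05, median -0.23) or 15 bile acid genes (3, median -0.04, or 0.23 without 36 h section A and -0.29 without section B). Serpina7, which encodes thyroxine-binding globulin, fell from 53.3 and 25.00 to 3.20, 3.74, 6.11 and 8.48 CPM (-2.86 ± 0.49, adjusted p = 0.0227). Gstp1, a glutathione transferase, fell from 665 and 333 to 139, 165, 66.96 and 210.3 CPM (-1.78 ± 0.41, adjusted p = 0.0489), with the caution that near-identical copies share its reads and that 10 of 11 fits without a section lost the call.

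Fetal and acute phase genes gave 3 calls, 18.2% of the fetal and 5.56% of the acute phase genes tested, beside 3.05% of all genes. Afp, α-fetoprotein, rose from 9.33 and 12.3 to 20.6, 26.7, 27.6 and 23.6 CPM (1.19 ± 0.20, adjusted p = 0.0204), above the 1.08, 1.31 and 1.44 CPM of the uninjured liver. Spp1, osteopontin, made by bile duct cells, macrophages and injured hepatocytes, rose from 88.9 and 137 to 185, 282, 455 and 294 CPM (1.43 ± 0.33, adjusted p = 0.0484). Of the 11 fetal genes tested, H19, Gpc3, Dlk1 and Igf2bp3 stayed under 2 CPM in every 36 h and 48 h section. Itih4 fell from 2075 and 2348 to 1405, 1453, 1600.0 and 1428 CPM (-0.59 ± 0.14, adjusted p = 0.0485), the only 1 of 18 acute phase genes called, while Saa1 ranged over 42.5, 193, 662 and 731 CPM within 48 h. Among other fits, the calls of Afp, Spp1 and Itih4 were lost without 48 h section B or C. Those of Spp1 and Itih4 were also lost without section D or any 1 of the 0 h sections. The fetal list's median was 0.25, -0.06 without 36 h section A and 1.31 without section B. That of the acute phase list was -0.19, -0.50 and 0.13.

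Collagen and matrix genes lay mostly above 0. Of 29 myofibroblast and fibrillar matrix genes 2 were called (6.90%, beside 3.05% of all genes), 28 lay above 0 and the median was 0.73. For 11 of the 29, all later sections lay above both earlier ones, beside 12.8% of all genes. Col3a1 (chr1:45311538-45349706), a fibrillar collagen, stood at 45.6 and 113 CPM at 36 h and 189.7, 267, 450.3 and 476 CPM at 48 h (2.12 ± 0.47, adjusted p = 0.0439). Lum (lumican), a collagen-binding proteoglycan, stood at 11.2 and 17.8 and 33.8, 42.1, 59.97 and 60.05 CPM (1.75 ± 0.28, adjusted p = 0.0193). In both, every later section was higher, sections C and D most of all. The Col3a1 call held only without 36 h section B or 48 h section A, and that of Lum was lost without 36 h section A or 48 h section C.

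Col1a1 had 20.5 and 80.4 CPM at 36 h and 94.3, 129.6, 291 and 261 CPM at 48 h, which did not overlap and missed the threshold (1.94 ± 0.60, adjusted p = 0.110). Acta2, the smooth muscle actin of myofibroblasts, overlapped between the times, at 21.1 and 75.2 and 49.1, 57.2, 68.8 and 68.9 CPM (0.34 ± 0.39, adjusted p = 0.667). Its log2 fold change was -0.30 without 36 h section A, and it was called higher without section B (1.53, adjusted p = 0.0181). Tnc and Timp1, matrix genes of early wounds, had log2 fold changes of -0.31 ± 0.31 and 0.21 ± 0.40. Section A at 48 h held 4.08, 0.0604, 0.201 and 0.275 CPM of Cnn1 (sections A to D in order), a vascular smooth muscle gene, and a spot with 40 thinned Acta2 UMIs, where no other 36 h or 48 h section exceeded 8. The part of a vessel wall in its values was not tested. DESeq2 called 10 genes of the list, and the median was 0.23 with 0 calls without 36 h section A and 1.51 with 16 calls without 36 h section B.

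Lrat, which makes the retinyl esters stored by these cells, rose from 11.99 and 10.6 to 21.04, 21.2, 26.9 and 33.5 CPM (1.19 ± 0.21, adjusted p = 0.0220), beside 23.4, 20.7 and 22.2 CPM at 0 h, the only 1 of 14 such genes called. Reln had 22.1 and 28.9 and 30.8, 46.04, 46.6 and 58.3 CPM and Dcn 86.2 and 152 and 159, 186, 243 and 204 CPM, both without overlap and short of the threshold (adjusted p = 0.0932 and 0.102). Of 16 TGF-β and activin genes, Tgfbr2, the type II receptor, rose from 23.4 and 24.9 to 34.3, 35.9, 39.6 and 31.2 CPM (0.54 ± 0.11, adjusted p = 0.0321) and Inhbe, a hepatocyte activin chain, fell from 19.5 and 19.03 to 10.8, 13.9, 10.2 and 10.9 CPM (-0.75 ± 0.15, adjusted p = 0.0267), while Tgfb1 stayed at -0.04 (log2). These calls made up 12.5% of the TGF-β and activin genes, and that of Lrat 7.14% of its list, beside 3.05% of all genes.

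Macrophage genes were led by Gpnmb (chr6:49036546-49070929), a glycoprotein of scavenging and lipid-associated macrophages. It stood at 30.9 and 39.5 CPM at 36 h and 101, 106, 226 and 147 CPM at 48 h (2.04 ± 0.36, adjusted p = 0.0220), after 7.81 and 9.60 CPM at 24 h, and never above 0.0847 CPM at 0 h. It was found in 12.4 and 15.9% of thinned spots at 36 h and 30.8, 32.4, 52.7 and 39.9% at 48 h (exact permutation p = 0.0667). It was the only 1 of 20 lipid-associated macrophage genes called, though 16 lay above 0 with a median of 0.41. Trem2, a lipid receptor of the same macrophages, had 14.4 and 33.05 and 39.00, 38.9, 75.97 and 51.6 CPM (1.12 ± 0.38, adjusted p = 0.137), and Cd68, a lysosomal marker of all macrophages, 58.3 and 93.2 and 82.7, 79.03, 157 and 97.9 CPM (0.46 ± 0.27). None of 14 Kupffer cell and C1q genes was called by edgeR (3 at an unadjusted p under 0.05), with a median of 0.43. The Gpnmb call was lost without 36 h section A or 48 h section B (adjusted p up to 0.0837). The lipid-associated list had 0 calls and a median of 0.27 without 36 h section A, and 8 calls higher and a median of 0.77 without section B, and the Kupffer list's median was 0.11 and 0.80 (0 and 2 called higher).

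Of 15 recruited monocyte genes, Lyz2 and Ifitm6 were called (13.3%, beside 3.05% of all genes). Among other fits, both calls were lost without 48 h section B or C, and that of Lyz2 also without any 1 of the 0 h sections. Lyz2, the lysozyme of macrophages, went from 204 and 281 to 407, 516, 751 and 897 CPM (1.41 ± 0.28, adjusted p = 0.0302), with reads it may share with its neighbour Lyz1, and Ifitm6 from 2.52 and 3.05 to 5.02, 5.25, 5.21 and 5.27 CPM (0.90 ± 0.15, adjusted p = 0.0211). The defining monocyte genes Ly6c2 and Ccr2 had log2 fold changes of 0.56 ± 0.40 and 0.52 ± 0.32, and the list's median was 0.56, -0.03 without 36 h section A and 1.16, with 4 genes called, without section B. Of 20 chemokines, 2 were called (10%, beside 3.05% of all genes), Ccl3 and Ccl4, which macrophages make and which draw monocytes and other leukocytes. Ccl3 stood at 1.85 and 2.11 CPM at 36 h and 6.17, 6.82, 7.16 and 5.07 CPM at 48 h (1.67 ± 0.21, adjusted p = 0.0135), and its call held without any 1 section. Ccl4 stood at 3.53 and 1.23 and 8.46, 10.2, 8.15 and 6.55 CPM (1.81 ± 0.35, adjusted p = 0.0259), and its call was lost without 48 h section B or C. For both genes the 24 h sections lay above the 36 h sections, Ccl3 at 3.76 and 3.38 CPM and Ccl4 at 9.27 and 9.41 CPM. Ccl2 had 17.99 and 30.3 and 56.8, 65.9, 38.02 and 22.3 CPM and overlapped between times (0.92 ± 0.40).

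**Figure D5:**
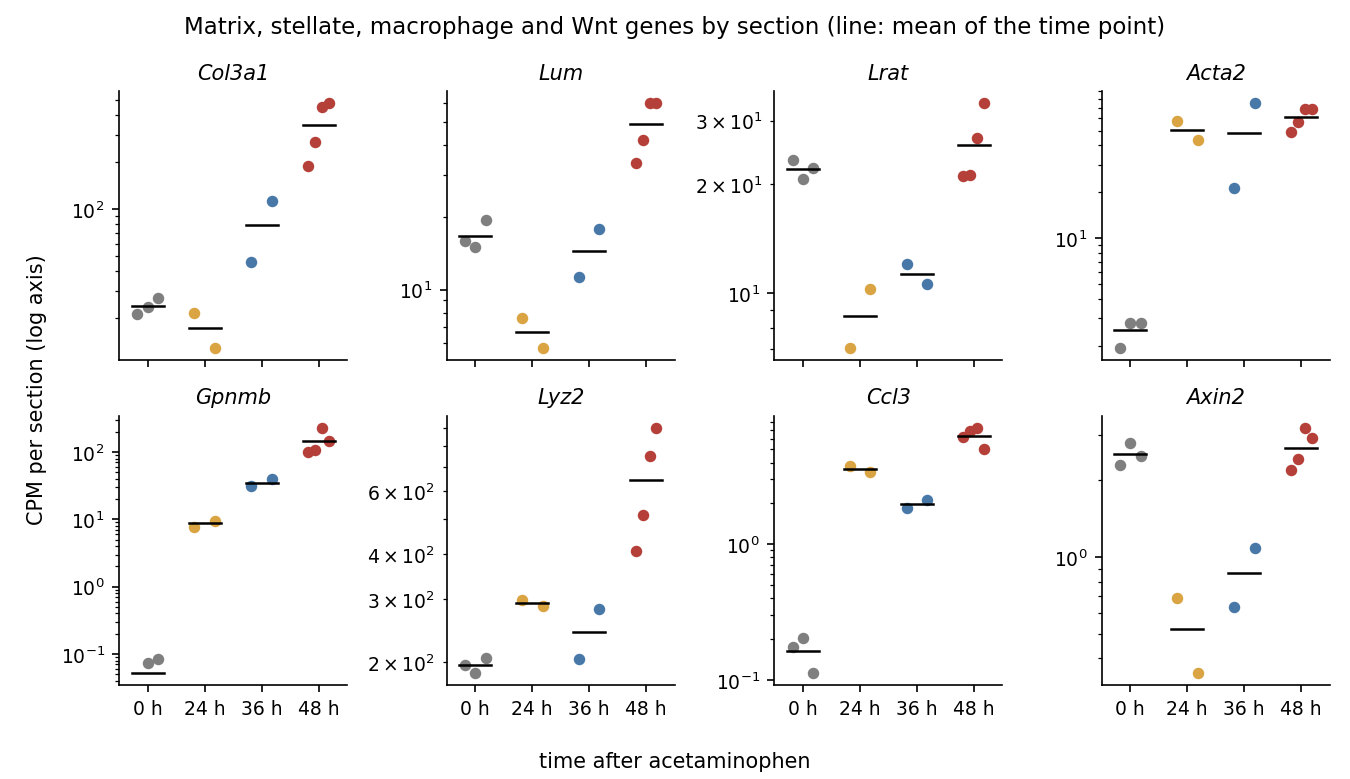
CPM of matrix, stellate, macrophage, chemokine and Wnt target genes in each of the 11 sections on a log axis, with the mean of each time point as a line; 1 uninjured section with no Gpnmb UMI has no point. The 48 h points lie above both 36 h points in every panel except Acta2, where 36 h section B is the highest of all.

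Each of the other immune and vascular lists gave 0 or 1 call, where 3.05% of all genes were called. Cd209a, a lectin of monocyte-derived dendritic cells, rose from 0.174 and 0.257 to 0.811, 0.785, 0.660 and 1.18 CPM (1.99 ± 0.37, adjusted p = 0.0247), the only 1 of 13 dendritic cell and MHC class II genes, and at a low level. Irf7, a regulator of interferon genes, fell from 65.9 and 71.2 to 42.7, 48.3, 47.3 and 51.9 CPM (-0.53 ± 0.10, adjusted p = 0.0285), the only 1 of 16 interferon-stimulated genes, 12 of which lay below 0. No call was made by edgeR among 13 neutrophil genes (median 0.53), 20 endothelial genes (-0.02), 17 lymphocyte genes (-0.05) or 10 biliary genes (-0.10). These had 1, 6, 1 and 0 genes at an unadjusted p under 0.05. Without 36 h section A their medians were -0.05, -0.32, 0.62 and 0.22, with 3 endothelial genes called lower, and without section B 1.62, 0.39, -0.09 and 0.11, with 2 endothelial genes called higher. Markers of blood and of the liver surface spread widely at 36 h. Summed erythroid genes stood at 319 and 1205 CPM at 36 h and 393, 649, 329 and 512 CPM at 48 h, mesothelial genes at 3.27 and 29.2 and 5.37, 3.95, 20.8 and 7.21 CPM, and mitochondrially encoded genes at 16274 and 43133 and 26430.1, 23847, 26266 and 20676 CPM. The 13 mitochondrial genes had a median of -0.41 with 0 called by edgeR (1 at an unadjusted p under 0.05), and the median became -0.93 with 2 called lower without 36 h section A and 0.50 without section B. The part of these differences in the results above was not tested.

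Each list of cell migration and of stress gave 0 or 1 call, where 3.05% of all genes were called. Of 30 migration and cytoskeleton genes none was called by edgeR (12 at an unadjusted p under 0.05), 24 lay above 0 and the median was 0.30. Without 36 h section A the median was -0.08 with 1 gene called lower, and without section B it was 0.75 with 10 called higher. Anxa2, a membrane- and actin-binding annexin, had 78.5 and 200.4 CPM at 36 h and 254, 189.9, 297 and 128 CPM at 48 h (0.64 ± 0.40, adjusted p = 0.399), with 36 h section B above 2 of the later sections. Its share of thinned spots was 29.7 and 57.6% and 62.7, 53.2, 71.2 and 46.8% (exact permutation p = 0.333), and the difference of the means was 14.8 percentage points, 0.877 without 36 h section A and 28.7 without section B. Of 16 immediate early genes Egr1, a growth factor-induced transcription factor, was called, at 8.98 and 15.8 CPM and then 39.6, 80.6, 27.1 and 46.1 CPM (1.96 ± 0.44, adjusted p = 0.0454). The 24 h sections lay above the 36 h ones here too, at 27.96 and 48.8 CPM. Among other fits, the Egr1 call was lost without 48 h section B, C or D or any 1 of the 0 h sections. The immediate early list's median was 0.06, -0.35 without 36 h section A and 0.65 without section B. None of 17 NRF2 targets (median 0.27), 20 heat shock and ER stress genes (0.01) or 10 YAP targets (-0.00) was called by edgeR, with 4, 5 and 1 at an unadjusted p under 0.05. For heat shock and ER stress genes the median was 0.37 without 36 h section A and -0.25, with 2 called lower, without section B, for YAP targets it was -0.03 and 0.20, and for NRF2 targets 0.08 without 48 h section A.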

How the data were processed

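Visium libraries of 11 mouse liver sections were analysed. The authors deposited, per section, spot-by-gene matrices of raw UMI counts (unique transcripts, not normalized), spots off the tissue included, with a table of spot positions. The submitters' processing notes name Space Ranger 1.0.0 and Seurat 4.1.1, and the genome was mm10. Spots under tissue with at least 800 genes and at most 20% mitochondrial UMIs were summed per section. Counts of 14821 of 31053 genes passing filterByExpr were tested in edgeR 4.0.16 (R 4.3.3, quasi-likelihood, robust, TMM scaling), with all sections in 1 fit (common biological coefficient of variation 0.194) and the contrast 48 h minus 36 h. Gene coordinates came from GENCODE vM21 on GRCm38. Sections were grouped by label. Spot shares were compared by the exact permutation test over sections (two-sided), after thinning each spot to 5000 UMIs, with 2000 as an alternative. Counting intervals were 95% Clopper-Pearson intervals, and since 43600556 to 60856876 UMIs were summed at 48 h and 31292663 and 33338901 at 36 h, counting error was small for all but the lowest genes.

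Named genes were the 10 largest rises and falls among called genes with a time point mean of at least 10 CPM and no overlap between sections, up to 2 called genes per list and direction, and 15 genes always given. Other genes were added after their values were seen. The members and the 39 gene lists were chosen with earlier results of these data known. Alternatives were DESeq2 1.42.0 and its size factors, total-count scaling, no low-count filter, all tissue spots, other sets of sections, a replicate block, and leaving out each section. The fit was tested on simulated data.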

Additional observations from a re-analysis of the deposited data

How the results depend on the processing

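The count of 452 changed genes became 1224 with DESeq2 (700 higher, 524 lower). It became 0, with 0 higher and 0 lower, in 3 fits: the 36 h and 48 h sections alone, the A and B sections of 24 h, 36 h and 48 h with a replicate block, and those sections without the block, chosen after seeing the data. There 2234, 1202 and 1290 genes had an unadjusted p under 0.05, the G2 and mitosis, DNA replication and clock lists had 0 calls, and 50 of the 50 called genes named lost their call. Deviations of 36 h and 48 h sections from their time point's mean correlated at 0.018 for letter A and -0.258 for B. Those of 24 h and 48 h sections correlated at -0.172 for both letters. Those of 24 h and 36 h sections gave 0.450, which is 1 value, because with 2 sections A and B deviate by equal and opposite amounts. These values do not settle whether the letters pair the sections, and pairing was not assumed. Total-count scaling gave 383 higher, 133 lower and 17 DNA replication genes, and DESeq2 gave 23 of the latter. Leaving out 1 section gave 45 to 1130 changed genes, 23 to 537 higher, 22 to 593 lower, 2 to 45 G2 and mitosis genes, 1 to 21 DNA replication genes and 2 to 12 clock genes. Thinned to 2000 UMIs, the differences in spot shares at 48 h minus 36 h were 4.04 percentage points for Mki67, 14.9 for Gpnmb and -43.5 for Upp2. Leaving out 1 section gave -5.00 to 13.8 for Acta2 and 0.877 to 28.7 for Anxa2. Among single genes the log2 fold change turned sign for Acta2 without 36 h section A (-0.30 to 1.53 over the sections left out), for Alb with the A and B sections, with the replicate block (0.0605) and without it (0.0565), and without 36 h section B (-0.26 to 0.00869), and for Hal in those A and B fits (0.26 each), with DESeq2 size factors (0.00368), DESeq2 (0.00367), no low-count filter (0.0128), total-count scaling (0.0768) and without 36 h section B or 48 h section C or D (-0.13 to 0.10). Of these 3 genes only Acta2 was called in any of these fits, without 36 h section B (1.53, adjusted p = 0.0181). The cause of each change was not tested. With 2 sections at 36 h, genes near 1 CPM rest on few UMIs, and their spread is assumed to be that of the other times.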

Other observations

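Of the 452 called genes, 368 stood in none of the lists, 169 higher and 199 lower at 48 h. The genes below were picked from them after their values were seen. They are single values and say nothing of a pathway. Stmn1 (stathmin), a microtubule destabilizer, stood at 15.9 and 18.6 CPM at 36 h and 30.9, 53.7, 71.7 and 97.6 CPM at 48 h (1.88 ± 0.37 on the log2 scale, adjusted p = 0.0299). Kif4, Dlgap5, Melk, Cdkn3 and Ncapg, of spindle, kinase and condensin function, had log2 fold changes of 2.53, 2.49, 1.99, 3.35 and 2.27. Eln (elastin) stood at 0.956 and 1.91 and 3.87, 4.95, 8.78 and 9.46 CPM (2.24 ± 0.45, adjusted p = 0.0297), Cthrc1 at 0.666 and 1.54 and 3.88, 3.04, 9.64 and 9.20 CPM (2.54 ± 0.57, adjusted p = 0.0454) and Pdgfc, a platelet-derived growth factor, at 3.48 and 1.85 and 5.92, 7.83, 10.3 and 8.25 CPM (1.60 ± 0.29, adjusted p = 0.0220).

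Acaa2, the mitochondrial thiolase, went from 697 and 712 to 519, 482, 385 and 515 CPM (-0.57 ± 0.13, adjusted p = 0.0467), and Acadvl, the very long chain dehydrogenase, from 265 and 268 to 222, 179.8, 168 and 190.4 CPM (-0.49 ± 0.11, adjusted p = 0.0482). Acaa1a and Pex11a, of peroxisomes, had log2 fold changes of -0.64 and -0.85. St3gal5, which makes the ganglioside GM3, fell from 105 and 290.0 to 89.7, 55.6, 73.3 and 59.6 CPM (-1.51 ± 0.33, adjusted p = 0.0447). Foxo3, a transcription factor held back by insulin signalling, had a log2 fold change of -0.73 ± 0.12 and Insr, the insulin receptor, of -0.51 ± 0.11.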
